A study of Mus musculus with 6 samples.

Results

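The receptors and ligands of the platelet-derived growth factor (PDGF) family were examined in single cells of fetal mouse intestine. The 6 genes were taken by symbol from the gene list of the deposited matrix, 6 of 24568 rows: the receptors Pdgfra and Pdgfrb, and the ligands Pdgfa, Pdgfb, Pdgfc and Pdgfd. Tissue came from Pdgfra-H2BGFP mice on a C57/BL6 background, a line named for a nuclear green fluorescent protein (GFP) under control of Pdgfra. All groups carry this reporter, and the labels do not say whether the reporter allele still makes a Pdgfra transcript. The 6 samples form 4 groups. Embryos of E15.5 with E16.5 gave 2 wells of live cells (DAPI-, Ter119-) and 1 of enriched cells, and E13.5 and E14.5 together with E18.5 embryos gave the same. Enriched cells had been sorted for CD31, CD45, Epcam or high PDGFRA-GFP, so the Pdgfra level of those wells was set in part by the gate. Between 2 and 4 replicates were pooled per age, and no label ties a cell of the matrix to an embryo, an age or a gate.

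PDGF ligands are secreted dimers that bring receptor tyrosine kinases together at the cell surface. PDGF-AA and PDGF-CC act through PDGFRA, PDGF-BB can bind both receptors, and PDGF-DD acts mainly through PDGFRB. PDGF-C and PDGF-D are secreted in latent form and are cut by proteases such as plasmin before they bind. In the fetal gut, epithelial PDGF-A is known to act on mesenchymal cells with PDGFRA, which gather beneath the epithelium where villi form, whereas PDGFRB is best known from pericytes and other perivascular mesenchyme.

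In the GRCm38 (mm10) annotation of GENCODE, Pdgfra lies at chr5:75152292-75198215 on the plus strand. The 250 bases before the RefSeq start of Pdgfra (GRCm38.p6, chr5:75152001-75152250, plus strand) are shown because the reporter and the sort both rest on this gene. Capitals mark the only match to TTGCNNAA or its reverse strand TTNNGCAA, the core of a motif bound by C/EBP factors.
Pdgfra: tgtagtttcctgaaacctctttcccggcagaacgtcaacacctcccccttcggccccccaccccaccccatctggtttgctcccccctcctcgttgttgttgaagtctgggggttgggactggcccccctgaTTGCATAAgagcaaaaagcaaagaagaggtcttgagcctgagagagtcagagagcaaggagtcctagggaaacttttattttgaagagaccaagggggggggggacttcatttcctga
The match spans positions -118 to -111 before the start, and 9.56% of the 32851 mouse promoter windows of this length hold it. This motif was chosen after the sequence had been read. No TATA box (TATAAA or TTTATA, in 12.4% of windows) and no GC box (GGGCGG or CCGCCC, in 32.7%) was found in this window, whose GC content was 54.4%.

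The matrix held 13127 cells, of which 12623 passed the cell filter, with 1560 to 23996 unique molecular identifiers (UMIs) per kept cell. Barcodes carried 6 suffixes, which were used as technical sets named A1, A2, A3, B1, B2 and B3, the letter being the ending of the suffix. No label says what the suffixes mean, so the sets are not study groups, the matrix counts as 1 sample, and no test was made. Kept cells numbered 2461, 2085, 1177, 2211, 2508 and 2181 in the sets in that order, with median depths of 12127, 13586, 7058, 4175, 4116 and 3548 UMIs, and 22 barcode sequences occurred in more than 1 set. All intervals are 95% intervals for counting error alone, and levels are CPM, the UMIs of a gene over all UMIs of the same cells in the usual scaling. UMIs were counted at transcript 3′ ends and do not scale with gene length, but capture differs between genes, so levels are compared between cells and not between genes. Most clusters were mesenchyme, and 1 cluster of 36 cells carried glial markers. A cluster of 241 cells in ending B had 4 blood markers at 4-fold, with Lyz2 and Tyrobp beside cell cycle genes among its leading genes, and was left unnamed. No cluster was named epithelial, endothelial, muscle or mural, although the enriched gates included CD31, CD45 and Epcam. The Slco2a1 Npnt and Calb1 Sfrp2 clusters of ending A, described below, had 7 and 5 epithelial markers at 4-fold. None of these markers was among their 10 leading genes, so both kept a mesenchyme name.

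Pdgfra, the receptor of PDGF-A and PDGF-C, was the member that varied most between sets. Its level in A1, A2 and A3 was 172, 129 and 939 CPM, and in B1, B2 and B3 it was 105, 113 and 406 CPM. A3 and B3 stood above the 4 other sets, and only the neighbours B1 and B2 had overlapping intervals. In A3, 78.4% of cells held 4 or more Pdgfra UMIs and 2.38% held none, with up to 31 UMIs in a cell. In B3, 9.45% held 4 or more and 28.7% none, while in B1 and B2 69.2% and 67.5% held none. To compare cells at equal depth, each was thinned to 2000 UMIs drawn without replacement, which left out 41 shallower cells. The share with a Pdgfra UMI was then 26.96%, 22.5% and 78.5% in A1, A2 and A3, against 76.1%, 72.3% and 97.6% before thinning. In B1, B2 and B3 it was 17.02%, 19.3% and 52.7%, against 30.8%, 32.5% and 71.3%. A3 and B3 were the highest sets at equal depth, and A1 and A2 were nearer to B1 and B2 than before thinning.

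Pdgfrb, the second receptor of the family, lies at chr18:61045150-61085061 and varied little. Its level in A1, A2 and A3 was 106, 92.9 and 116 CPM, and in B1, B2 and B3 it was 84.4, 73.2 and 79.6 CPM, a range of 73.2 to 116 CPM where Pdgfra spanned 105 to 939. In the order of levels, the intervals of A3 and A1 overlapped, as did those of A2 and B1, of B1 and B3, and of B3 and B2. After thinning, 12.9% (B2) to 22.1% (A3) of cells held a Pdgfrb UMI, and the variance of the count was 1.06 to 1.12 times its mean (the Fano factor, 1 for random sampling of a uniform population). For Pdgfra the same factor ran from 1.18 in A2 to 1.75 in A3.

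Pdgfa, the ligand of PDGFRA that is best known from epithelium, lies at chr5:138976014-138997370 on the minus strand and had a UMI in 31.2% of kept cells. It stood at 81.4, 84.0 and 55.7 CPM in A1, A2 and A3, and at 78.3, 76.3 and 96.8 CPM in B1, B2 and B3. A3 was lowest and B3 highest, although both were rich in Pdgfra, and the 4 other sets had overlapping neighbours. The UMIs were spread most unevenly over cells in A3 and B3. Before thinning, the 10% of cells with most Pdgfa held 77.9% of its UMIs in A3 and 77.97% in B3. This share was 63.5% in B1 and 60.4% in B2, whose depth was nearer to that of B3. In A1 and A2, the deepest sets, it was 47.8% and 45.4%. At 2000 UMIs per cell the Fano factor of Pdgfa was 1.86 in A3 and 1.84 in B3, 1.54 in B1, 1.37 in B2, and 1.11 and 1.12 in A1 and A2. A3 and B3 thus had the most uneven Pdgfa counts, followed by B1 and B2. The gene 6330403L08Rik overlaps Pdgfa on the opposite strand and had 375 UMIs in all cells, against 7877 for Pdgfa. The 36 glia-like cells stood at 57.4 CPM of Pdgfa (33.4 to 91.9). They came from B1 (21) and B2 (15) alone, so they gauge no other set. Within B2 the Slco2a1 Npnt cluster described below stood lower, at 9.13 CPM (2.97 to 21.3). Whether the glia-like cells held free RNA or made Pdgfa was not tested. Levels in their interval are read neither as expression by the cells that hold the UMIs nor as free RNA.

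**Figure D1:**
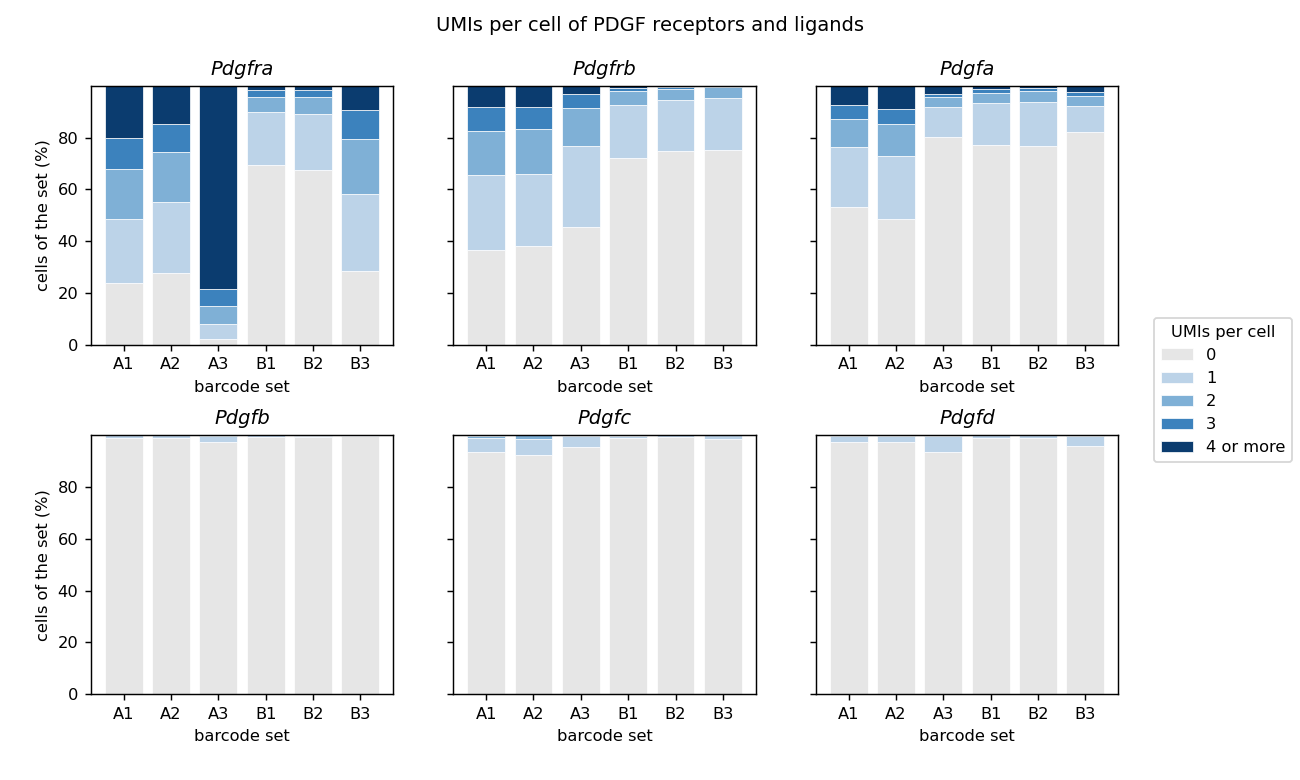
Share of kept cells (%, vertical axis) with 0, 1, 2, 3 and 4 or more UMIs of each gene, before thinning, in the 6 barcode sets. Pdgfra separated A3 from all other sets (78.4% of cells with 4 or more), Pdgfrb did not, and Pdgfb, Pdgfc and Pdgfd were absent from over 90% of cells in every set; depth differs between sets.

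The other ligands were scarce. Pdgfb lies at chr15:79995874-80014977, Pdgfc at chr3:81036416-81214040 and Pdgfd at chr9:6168584-6378850. Pdgfb, the ligand that endothelial cells use to recruit pericytes, had 112 UMIs in 12623 cells, from 0.661 CPM in A2 to 3.45 CPM in A3. In A3 the 8 endothelial markers summed to 128 to 137 CPM over the Pdgfra classes of cells described next, against 26.99 to 31.9 in A1 and A2, with none of the 8 at 0 outside the small class without Pdgfra UMIs, and their part in the Pdgfb level was not tested. In B3 these markers summed to 82.2 to 91.6 CPM, while Pdgfb stood at 0.858 CPM. Pdgfc stood at 5.92, 6.57 and 6.36 CPM in A1, A2 and A3, and at 2.19, 1.34 and 3.55 CPM in B1, B2 and B3, so that ending A was higher, although the intervals of A1 and A3 overlapped that of B3. Pdgfd stood at 2.00, 1.84 and 8.72 CPM in the A sets and at 2.49, 2.42 and 11.2 CPM in the B sets, so that A3 and B3 were higher than the 4 other sets, with intervals of 6.93 to 10.8 and 8.98 to 13.7 that overlapped none of theirs. Thinned, 2.30% of A3 cells and 2.67% of B3 cells held a Pdgfd UMI, and 0.244% to 0.560% elsewhere.

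The next question was whether both receptors were found in the same cells. At 2000 UMIs per cell, 5.86% of the 12582 cells held UMIs of both Pdgfra and Pdgfrb, 26.3% of Pdgfra only, 10.2% of Pdgfrb only and 57.6% of neither. The observed share with both, beside the share expected if the genes were independent within a set, was 5.04% and 4.80% in A1, 3.45% and 3.64% in A2, and 18.48% and 17.3% in A3. For B1 these shares were 2.41% and 2.48%, for B2 2.80% and 2.49%, and for B3 9.27% and 8.25%. The odds ratios were 1.09, 0.923 and 1.54 in the A sets and 0.959, 1.18 and 1.36 in the B sets. Only those of A3 (1.07 to 2.22) and B3 (1.08 to 1.73) had intervals above 1. Over the sets the Mantel-Haenszel odds ratio was 1.15 (1.03 to 1.29). It was 1.12 (0.992 to 1.25) without A3, 1.10 (0.966 to 1.24) without B3 and 1.06 (0.958 to 1.17) after thinning to a larger number of UMIs, each with an interval that includes 1. The interval also included 1 after thinning to 1000 UMIs, at 1.13 (0.960 to 1.33), and with 2 UMIs of each gene required. It stayed above 1 without thinning, at 1.20 (1.10 to 1.31), and without cycling cells, at 1.25 (1.08 to 1.45). The same held without A1, A2, B1 or B2, and with no cell filter. Within cells, counts of both receptors correlated with r from -0.03 in A2 to 0.08 in A3. Of the glia-like cells, 11.1% held a Pdgfra UMI and 8.33% (1.75 to 22.5) a Pdgfrb UMI at this depth, so a single UMI does not show that a cell made the receptor.

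Split by the cell classes described below, an analysis added after seeing the data, the odds ratio was 1.56 (1.29 to 1.88) among PDGFRA-high mesenchyme and 0.974 (0.838 to 1.13) among other mesenchyme. These intervals do not overlap, but the difference was not tested. The first class pools the Slco2a1 Npnt, Gadd45a Mical2 and Calb1 Sfrp2 clusters, which differ in both receptors. In that order, 86.6%, 63.6% and 83.3% of thinned cells held a Pdgfra UMI in A, and 60.2%, 40.5% and 48.3% in B. For Pdgfrb the shares were 23.9%, 17.9% and 14.5% in A, and 18.3%, 11.0% and 14.9% in B. The part of this pooling in the odds ratio was not tested. For Pdgfra and Pdgfa, also added afterwards, the odds ratio over sets was 0.857 (0.754 to 0.973). In B3, 10.2% of cells with and 13.7% of cells without a Pdgfra UMI held a Pdgfa UMI, an odds ratio of 0.717 (0.552 to 0.931). The intervals of the 5 other sets included 1, with values of 0.938, 1.07 and 0.632 in A1, A2 and A3, and 0.923 and 0.813 in B1 and B2.

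**Figure D2:**
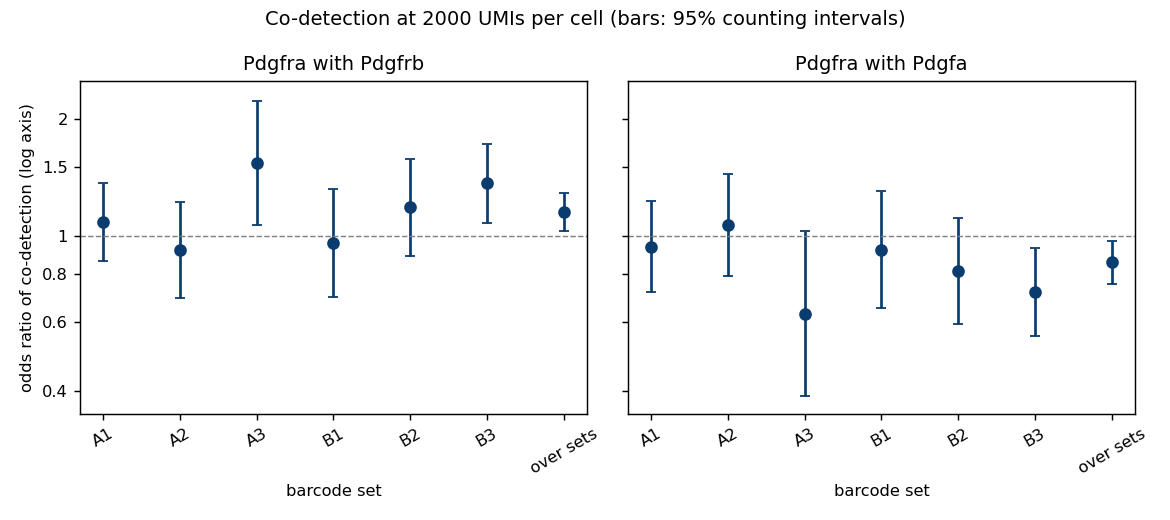
Odds ratio (log axis) of finding a UMI of Pdgfra together with a UMI of Pdgfrb (left) or Pdgfa (right) in a cell thinned to 2000 UMIs, per barcode set and over sets, with 95% counting intervals. With Pdgfrb, A3 and B3 lie above 1 with their intervals; with Pdgfa, B3 lies below 1 with its interval.

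Cells were then divided by their own Pdgfra count into those with 0, 1 to 3 and 4 or more UMIs; the first held 5042 cells and the last 2003. Pdgfrb showed no common direction across these classes, given here in that order. It stood at 102, 108 and 105 CPM in A1, at 92.9, 94.2 and 88.3 in A2, and at 107, 105 and 118 in A3. In B1 it was 90.2, 70.6 and 82.7 CPM, in B2 72.4, 72.9 and 123 (74.1 to 192, from 19 UMIs), and in B3 65.0, 87.1 and 75.2. The intervals of the first and last class overlapped in all 6 sets. Those of the first and middle class did not overlap in B1, where the middle was lower (83.3 to 97.5 and 61.3 to 81.0). Nor did they in B3, where the middle was higher (55.0 to 76.3 and 79.1 to 95.7). The Mantel-Haenszel log2 ratio over sets of 4 or more against 0 was 0.03 (-0.08 to 0.13), with 4 sets higher and 2 lower. As a ratio the interval spans 0.946 to 1.10. Other settings gave intervals above 0, namely 0.27 (0.18 to 0.35) with sets pooled, 0.22 (0.02 to 0.42) without cycling cells and, added after seeing the data, 0.37 (0.01 to 0.72) within PDGFRA-high mesenchyme. That class pools clusters that differ in both receptors, and their part in the last value was not tested.

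Pdgfa did not follow Pdgfra in 1 direction. In A1 it stood at 68.7 CPM in cells without Pdgfra UMIs, 83.0 with 1 to 3 and 88.5 with 4 or more, and in A2 at 70.7, 87.4 and 91.1. In B3 the order was the opposite, with 128 CPM (114 to 143), 90.5 (82.3 to 99.2) and 50.5 (36.5 to 68.0). In A3, where only 28 cells had no Pdgfra UMI, Pdgfa was 84.7 CPM with 1 to 3 and 48.9 with 4 or more. In B1 and B2, where 33 and 38 cells had 4 or more, it was 78.2, 78.9 and 67.7 CPM, and 75.3, 80.8 and 25.9 CPM. The log2 ratio of 4 or more against 0 was 0.37, 0.37 and 0.15 in the A sets and -0.21, -1.54 and -1.34 in the B sets. Over sets it was 0.17 (0.05 to 0.29), but 0.01 (-0.15 to 0.17) without A1, 0.04 (-0.11 to 0.20) without A2, and -0.51 (-0.65 to -0.36) with classes of 0 and 2 or more UMIs drawn after thinning. Cells were also divided by Pdgfa count into 0, 1 to 3 and 4 or more UMIs, added after seeing the data. Pdgfra then stood at 182 (175 to 189), 165 (158 to 172) and 159 CPM (145 to 174) in A1. In A2 it was 133, 126 and 126 CPM, with overlapping intervals. Pdgfra was highest in cells without Pdgfa UMIs in every set, so the rise in A1 and A2 was not seen in this direction.

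Depth moved with the Pdgfra classes, most in A1 and A2. The median was 10063 UMIs without and 14212 with 4 or more Pdgfra UMIs in A1, and 11368 and 16019 in A2, against 3503 and 3878 in B3. It fell from 4218 to 3766 in B1 and from 4192 to 3372.5 in B2. The share of cells with a Mki67 or Top2a UMI, transcripts of dividing cells, rose from 58.8% to 74.2% in A1 and from 61.9% to 79.5% in A2. That share fell from 53.6% to 40.8% in A3, from 42.3% to 15.2% in B1 and from 40.2% to 21.1% in B2. In B3 it was 14.7% and 15.0%. Among cells of all sets without these transcripts the Pdgfa log2 ratio was -0.22 (-0.45 to 0.01). The share of PDGFRA-high mesenchyme also differed between classes in some sets. In B3 it was 86.2% of cells with 0 and 92.7% of cells with 4 or more Pdgfra UMIs, and in A3 46.4% and 90.7%. It ran from 9.80% to 75.8% in B1 and from 10.2% to 81.6% in B2, but only from 0.170% to 8.27% in A1 and from 0 to 9.12% in A2. In B3 the 7 epithelial markers summed to 129, 110 and 105 CPM in cells with 0, 1 to 3 and 4 or more Pdgfra UMIs, none of them at 0. The part of depth, cell cycle, cell class and epithelial transcripts in the Pdgfa values was not tested.

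**Figure D3:**
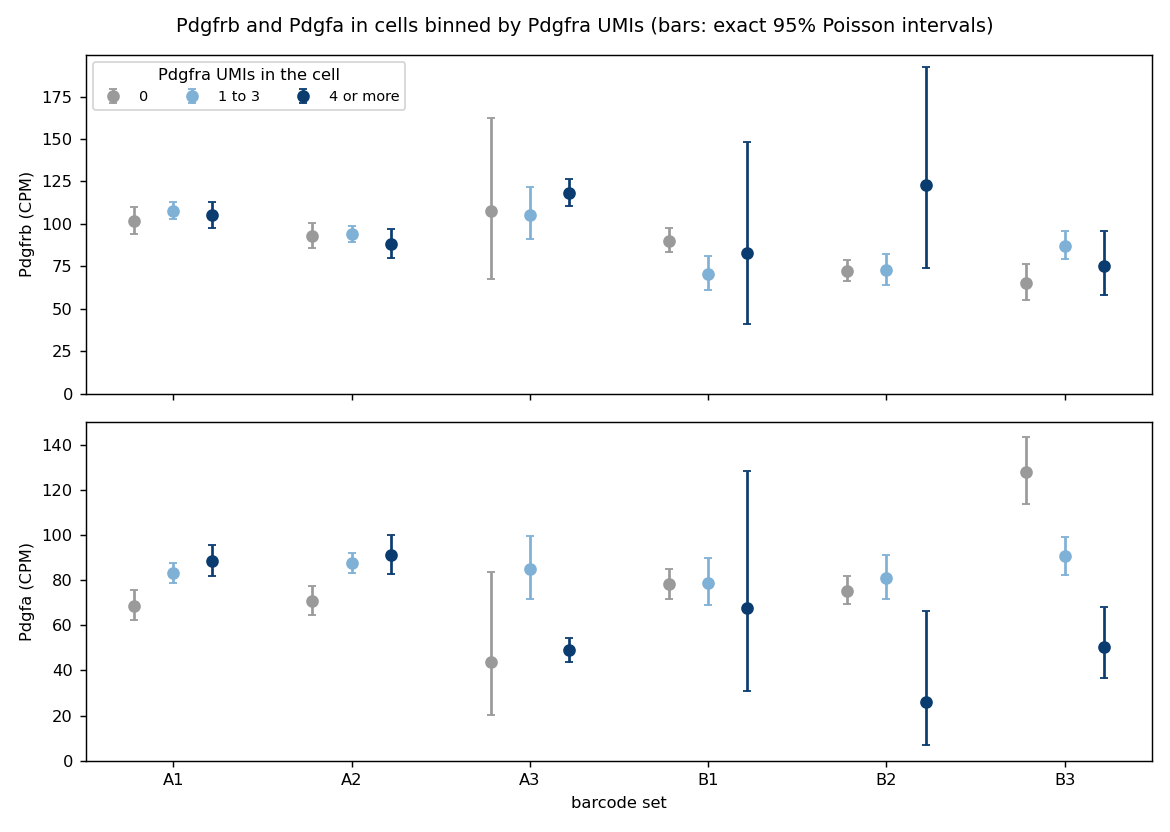
Pdgfrb (top) and Pdgfa (bottom) in CPM for cells with 0, 1 to 3 and 4 or more Pdgfra UMIs in each barcode set, with exact 95% Poisson intervals. Pdgfrb shows no common direction over the sets. Pdgfa is higher with more Pdgfra in A1 and A2, where depth also rises, and lower in B3, from 128 to 50.5 CPM.

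For the scarce ligands the counts limited what could be read. Pdgfc stood at 2.80 CPM in all cells without Pdgfra UMIs, 5.91 with 1 to 3 and 6.42 with 4 or more. Its stratified log2 ratio was 0.68 (0.31 to 1.04) for 1 to 3, higher in 6 of 6 sets, and 0.73 (0.25 to 1.20) for 4 or more, higher in 3 of the 4 sets with UMIs in both classes. With classes of 0 and 2 or more UMIs drawn after thinning, which changes both depth and class, the value was -0.09 (-0.59 to 0.42). Pdgfd in B1 stood at 1.28 CPM (0.587 to 2.44) with 0 and 5.17 (2.89 to 8.52) with 1 to 3 Pdgfra UMIs, and in B2 at 1.18 (0.542 to 2.25) and 4.99 (2.91 to 7.996), whereas in B3 it was 12.2 and 11.2 CPM. Between these classes PDGFRA-high cells went from 9.80% to 33.8% in B1 and from 10.2% to 35.0% in B2, and their part was not tested. Pdgfd was lower with 1 to 3 UMIs in A1 and A2 (log2 ratios -0.25 and -0.37), and over sets the ratio was 0.34 (-0.04 to 0.71), with 3 sets higher and 3 lower. The Pdgfd log2 ratio of 4 or more against 0 over sets was 0.09 (-0.50 to 0.68). Pdgfb gave 34 and 26 UMIs in these classes, and its log2 ratio of 0.40 had an interval of -0.86 to 1.66.

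The same contrast over all genes served as background. Of 6830 genes with at least 20 CPM in 1 of the classes with 4 or more and 0 Pdgfra UMIs, 207 (3.03%) were higher by 1.5-fold or more and 165 (2.42%) lower, with a median log2 ratio of 0.06. Pdgfrb and Pdgfa reached the CPM minimum and neither passed 1.5-fold, while Pdgfb, Pdgfc and Pdgfd did not reach it. Genes that act with the PDGF system were read in 4 lists, chosen with earlier results of these data known. Their CPM are those of the classes pooled over sets, whereas their log2 ratios are stratified by set, so the 2 can differ. PDGFRA-high mesenchyme went from 9.80% of cells with 0 to 75.8% with 4 or more Pdgfra UMIs in B1, and from 86.2% to 92.7% in B3. The part of this in the listed genes was not tested. Among 11 genes of ligand processing and binding, 8 were tested, 1 was higher and 1 lower, with a median log2 ratio of -0.25. Pcsk6, a proprotein convertase that cleaves growth factor precursors, stood at 100 against 20.2 CPM (log2 ratio 1.03, 0.83 to 1.24, higher in 6 of 6 sets, from 0.28 in B3 to 3.13 in B1). Sparc, a matrix protein that binds PDGF-B and hinders its receptor binding, stood at 1143 against 2563 CPM (-1.07, -1.09 to -1.04, lower in 6 of 6 sets, but by only -0.18 in A3 and -0.09 in B3).

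Of 15 genes that act next to the receptors, such as Grb2, Pik3r1 and Plcg1, 13 were tested and none passed 1.5-fold in either direction, with a median of 0.11. Pik3r1, the regulatory subunit of PI3-kinase, had the largest value among them at 0.45 and was higher in 6 of 6 sets. Of 11 feedback genes and inhibitors, 9 were tested, 2 were higher and none lower, with a median of 0.31. Among them was Spry4, a Sprouty inhibitor of receptor tyrosine kinase signalling, at 25.3 against 10.8 CPM (log2 ratio 0.65, 0.39 to 0.92), higher in 6 of 6 sets. Of 13 related receptors and ligands only 5 reached the CPM minimum. Vegfa, the main growth factor of blood vessels, stood at 139 against 65.0 CPM (0.87, 0.75 to 0.99, higher in 6 of 6 sets). Vegfc, a growth factor of lymphatic vessels, stood at 18.4 against 23.0 CPM in the pooled classes but had a stratified log2 ratio of -1.69 (-1.96 to -1.43), lower in 5 sets and higher in B3.

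To see in which populations the members were found, cells were clustered separately in each ending without the 6 genes, which gave 17 clusters in A and 11 in B. These clusters describe cells and offer no test. From fixed markers such as Foxl1, Bmp2, F3 and Ednrb, 3 clusters in each ending were PDGFRA-high mesenchyme. The first had Slco2a1 and Npnt among its leading genes and held 733 cells in A and 1330 in B. The second shared Gadd45a and Mical2 among its leading genes and held 196 and 803 cells. The third was led by Calb1 and shared Sfrp2, with 187 and 689 cells. The pairing of the last 2 across endings is uncertain: of its top 10 genes, the second cluster of B shared 3 with the second of A (Gadd45a, Mical2, Trp53i11) and 3 with the third of A (Gadd45a, Opcml, F2rl1). In ending A, 686, 180 and 162 of these cells were from A3, so these clusters come almost wholly from 1 set. Epithelial markers also moved with them: the 7 genes summed to 416, 268 and 388 CPM in the A clusters, against 47.1 to 101 in the other mesenchyme clusters there, and to 108, 85.6 and 86.1 CPM in B against 33.4 to 55.5. Within A3 this sum did not move with Pdgfra, at 376, 374 and 373 CPM in cells with 0, 1 to 3 and 4 or more UMIs.

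Pdgfra was highest in these 3 clusters in both endings. In A it stood at 1272 CPM in the Slco2a1 Npnt cluster, 1071 in the Calb1 Sfrp2 cluster and 590 in the Gadd45a Mical2 cluster, and in B at 515, 348 and 289 CPM. No intervals among the 3 overlapped in either ending. The other clusters of at least 50 cells ran from 93.0 to 262 CPM in A and from 36.0 to 185 CPM in B. Of the neighbours in the order of levels, 9 of 14 pairs in A and 4 of 9 in B had overlapping intervals. The 36 glia-like cells served to gauge free RNA in B1 and B2, the only sets they came from. A further limit is that some glia of the brain are known to make this receptor. The glia-like cells stood at 60.8 CPM (36.0 to 96.1), with a Pdgfra UMI in 11.1% of thinned cells (3.11 to 26.1) and a median depth of 8004 UMIs. The Ogn Cxcl13 cluster stood at 52.0 CPM and 9.81% (median depth 3914), a cluster led by Ccne2 at 57.2 CPM and 10.1% (5684), and the D630033O11Rik S100a6 cluster at 36.0 CPM and 7.23% (4460). These shares were at or below that of the glia-like cells, and their Pdgfra UMIs are not read as expression.

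Pdgfa set the Slco2a1 Npnt clusters apart from the other Pdgfra-rich clusters. It stood at 14.5 CPM (11.3 to 18.4) in the Slco2a1 Npnt cluster of A, the lowest among clusters of at least 50 cells there, and 21.8 CPM (17.7 to 26.6) in that of B, where 1 cluster of 78 cells was lower. In the Gadd45a Mical2 clusters it stood at 134 CPM (118 to 151) and 295 CPM (276 to 314), the highest of all clusters of at least 50 cells in each ending, although in A the interval overlapped that of the next cluster. The ratio was 9.21-fold in A (7.05 to 12.2) and 13.51-fold in B (11.0 to 16.8). Within sets it was 8.60-fold in A3, 11.9-fold in B1, 38.2-fold in B2, where the lower cluster had 5 UMIs, and 11.9-fold in B3. The set-wise values were added after seeing the data. Pdgfra went the other way, with log2 ratios of -1.11 in A and -0.83 in B. The Calb1 Sfrp2 clusters lay between, at 105 and 58.7 CPM, which is 7.22-fold and 2.69-fold over the Slco2a1 Npnt clusters. In A the interval of the Calb1 Sfrp2 cluster (88.2 to 124) overlapped that of the Gadd45a Mical2 cluster. The ratio of Gadd45a Mical2 over Calb1 Sfrp2 was 1.16-fold (0.927 to 1.46) within A3, against 5.02-fold (4.21 to 6.01) in B. Pooled over B, only the Gadd45a Mical2 cluster lay above the interval of the glia-like cells (33.4 to 91.9), which came from B1 and B2 alone. Within B1 and B2 it stood at 318 CPM (271 to 371) and 349 CPM (301 to 402). The Slco2a1 Npnt cluster lay below that interval in B2, at 9.13 CPM (2.97 to 21.3). In B1 its level of 26.7 CPM (13.8 to 46.7) overlapped the interval. The Gdf10 Cdo1 cluster, pooled over B, stood at 10.0 CPM (3.25 to 23.3). Next to the Gadd45a Mical2 cluster of A stood a cluster outside this class, led by Ccnd1 and Igfbp2, with 129 CPM of Pdgfa, beside 164 CPM of Pdgfra and the highest Pdgfc level in A, 13.2 CPM.

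The Gadd45a Mical2 cells held more of the Pdgfa UMIs than of the cells in each set where they were counted. In B3 they were 24.7% of cells and held 71.9% of Pdgfa UMIs, but 20.6% of Pdgfra UMIs. In A3 they were 15.3% of cells with 43.9% of Pdgfa UMIs and 12.4% of Pdgfra UMIs. In B1 and B2, 5.88% and 5.38% of cells held 20.7% and 22.1% of Pdgfa UMIs. The Slco2a1 Npnt cells of B3 were 47.0% of cells with 10.3% of Pdgfa and 54.4% of Pdgfra UMIs. The Calb1 Sfrp2 cells also held more of the Pdgfa UMIs than of the cells in A3, at 13.8% of cells with 23.0% of Pdgfa UMIs. In B3 they were 17.8% of cells with 9.87% of Pdgfa UMIs.

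**Figure D4:**
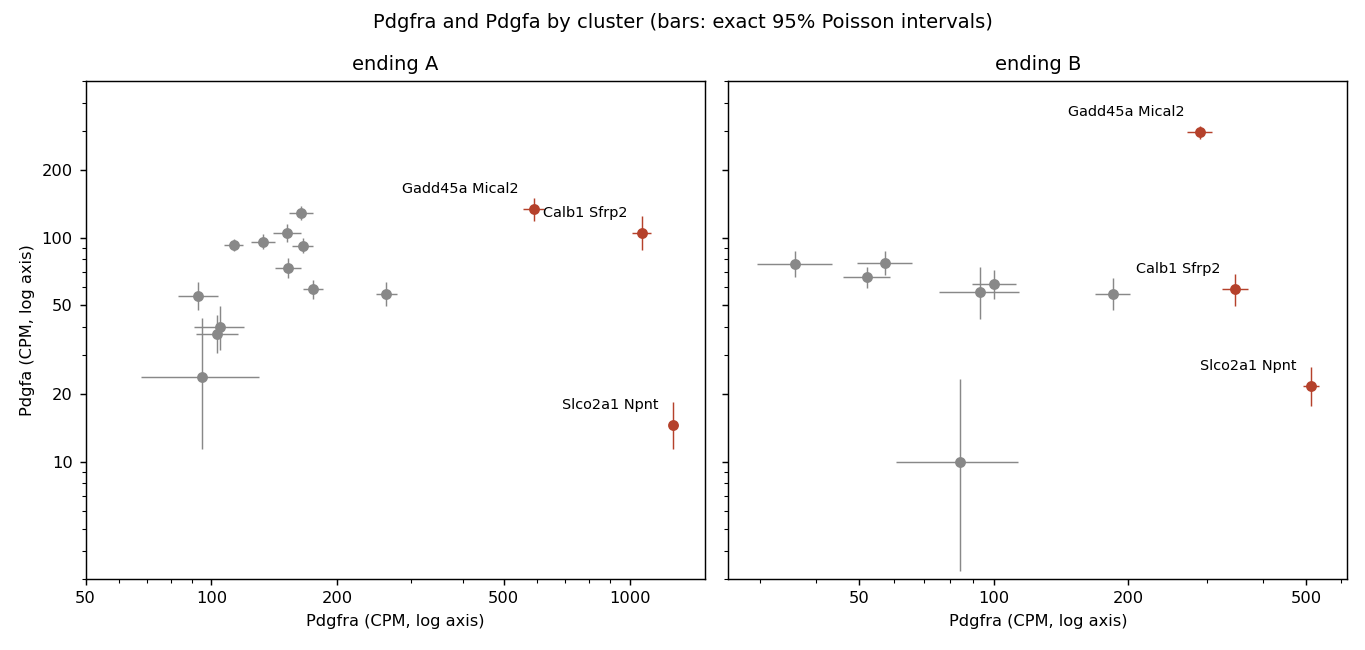
Pdgfra (horizontal, CPM, log axis) against Pdgfa (vertical, CPM, log axis) in clusters of at least 50 cells, ending A left and ending B right, with exact 95% Poisson intervals. Red points are PDGFRA-high mesenchyme: at high Pdgfra, Pdgfa ran from 14.5 to 134 CPM in A and from 21.8 to 295 CPM in B.

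These clusters were also divided by Pdgfra count, an analysis added after seeing the data. In the Gadd45a Mical2 cluster of B, Pdgfa stood at 366 CPM (332 to 402) in cells with no Pdgfra UMI, 264 (241 to 289) with 1 to 3 and 128 (81.3 to 192) with 4 or more, at median depths of 3801, 3842 and 4115 UMIs. Cells with a Pdgfa UMI made up 54.2%, 44.0% and 30.2%, and the last group was 43 cells with 23 Pdgfa UMIs. All values within clusters pool the sets of an ending. In this cluster Pdgfra stood at 203, 215 and 330 CPM in B1, B2 and B3, and Pdgfa at 318, 349 and 275 CPM. The part of the sets in the fall of Pdgfa was not tested. In the Slco2a1 Npnt cluster of B it was 24.4, 20.3 and 24.2 CPM, with overlapping intervals. In the Calb1 Sfrp2 cluster of B it was 50.2, 60.7 and 80.8 CPM, again overlapping. In ending A, with too few cells at 0, cells with 1 to 3 and with 4 or more stood at 154 and 128 CPM in the Gadd45a Mical2 cluster, whose intervals overlapped, and at 193 (139 to 262) and 88.5 (71.6 to 108) in the Calb1 Sfrp2 cluster. Over the whole class the stratified log2 ratio was -1.44 (-1.84 to -1.04), against 0.36 (0.23 to 0.49) in other mesenchyme. Its strata were sets and not clusters, and the cluster mix differed between Pdgfra counts. In B, 329 Slco2a1 Npnt, 308 Gadd45a Mical2 and 224 Calb1 Sfrp2 cells had no Pdgfra UMI. With 4 or more UMIs these numbers were 164, 43 and 40. The part of this mix in the value for the class was not tested.

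**Figure D5:**
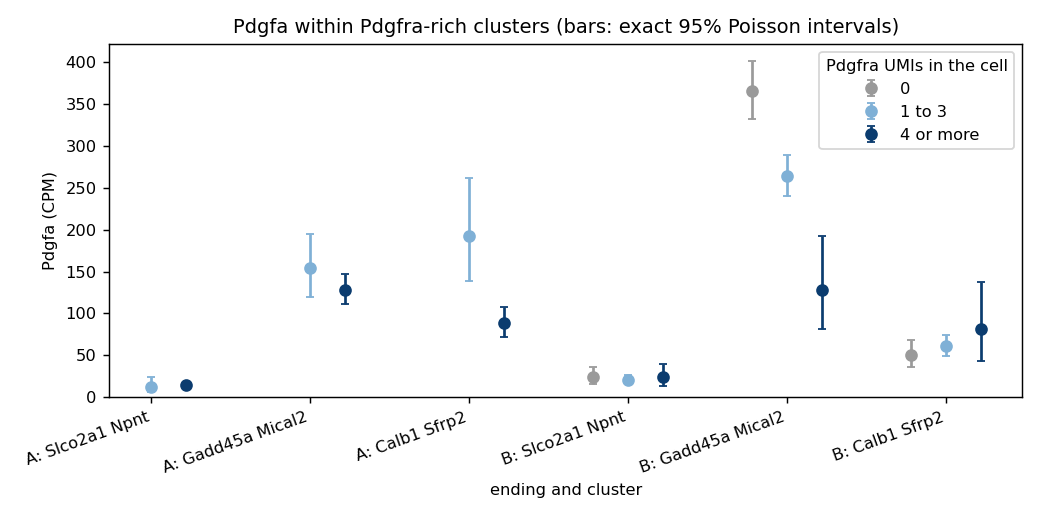
Pdgfa (CPM) in cells with 0, 1 to 3 and 4 or more Pdgfra UMIs within the 3 PDGFRA-high clusters of each ending, with exact 95% Poisson intervals and classes of at least 20 cells shown. Pdgfa is lower in each further class, from 366 to 128 CPM, in the Gadd45a Mical2 cluster of ending B and stays between 20.3 and 24.4 CPM in its Slco2a1 Npnt cluster. The sets of each ending are pooled.

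Pdgfrb and Pdgfd were spread differently. Among clusters of at least 50 cells, Pdgfrb was highest in A in the Kcnk2 Nefm cluster at 135 CPM (125 to 145), followed by an Igfbp3 P2rx1 cluster of 54 cells at 131 and the Slco2a1 Npnt cluster at 128, and lowest in the Dpt Aspn cluster at 52.99 CPM (44.9 to 62.2). All 14 neighbouring pairs overlapped. In B the D630033O11Rik S100a6 cluster led with 122 CPM (110 to 135) where Pdgfra was lowest, and a Gdf10 Cdo1 cluster of 78 cells was lowest at 34.0 CPM. In both endings Pdgfrb was lower in the Gadd45a Mical2 than in the Slco2a1 Npnt cluster, with log2 ratios of -0.31 (-0.54 to -0.08) and -0.73 (-0.99 to -0.47). Pdgfd stood at 11.4 and 11.6 CPM in the Slco2a1 Npnt clusters, 13.1 and 14.7 in the Calb1 Sfrp2 clusters and 5.46 and 7.37 in the Gadd45a Mical2 clusters. In the other mesenchyme as a whole it was 1.87 CPM (1.54 to 2.25) in A and 1.62 (1.08 to 2.32) in B. The gene Ddi1, on the strand opposite to Pdgfd, had 52 UMIs against 339. Pdgfb reached its highest level in the glia-like cells, at 30.4 CPM (13.9 to 57.7) from 9 UMIs, while no mesenchyme cluster of at least 50 cells exceeded 3.86 CPM. Pdgfd had no UMI in these 36 cells, which allows a share of cells with a UMI of up to 9.74% and sets no limit on cells that express the gene.

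Across the 15 clusters of A and 10 of B, levels of Pdgfra correlated with those of Pdgfrb at r = 0.09 and 0.04, with Pdgfa at -0.05 and -0.00, with Pdgfb at 0.76 and 0.25, with Pdgfc at 0.0093 and 0.75, and with Pdgfd at 0.68 and 0.87. These are descriptions over clusters of shared libraries. The Pdgfb and Pdgfc values rest on few UMIs, with at most 3.86 CPM of Pdgfb in a cluster of A and 2.38 in B. For Pdgfc the highest level in B was 5.56 CPM. In A the PDGFRA-high clusters were almost wholly from A3, so set and cluster cannot be told apart there, also for the genes listed next. Among 4017 genes, those most like Pdgfra by the lower r of both endings were Tspan13 (0.96 in both), Chic2 (0.95 and 0.97), the basement membrane collagen Col4a5 (0.94 and 0.96), the transcription factor Foxp4 (0.94 and 0.96) and Ctxn3 (0.97 and 0.93). The genes most like Pdgfa were Ppp1r14b (0.90 and 0.87), the ephrin ligand Efnb1 (0.85 in both), the thioredoxin reductase Txnrd1 (0.86 and 0.81), Smg6 (0.78 and 0.80) and Chd3 (0.78 and 0.82). For Pdgfrb the values were lower, with Lrrtm3 (0.79 and 0.92), Igsf3 (0.72 and 0.78), Hoxa5 (0.68 and 0.75), Asap1 (0.68 and 0.74) and Batf3 (0.66 and 0.72).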

How the data were processed

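Cells were dissociated, tagged with lipid barcodes (MULTI-seq) and captured with 10x Chromium 3′ V3 chemistry, per the labels' protocols. Cell Ranger 2.1.1, Seurat and build mm10 are named in the submitters' processing notes, and the annotation is not given in the sources used here. The authors deposited raw UMI counts per gene and cell in 1 matrix for all samples. The members and lists were chosen with earlier results of these data known.

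Cells with under 1000 genes (108) or over 5% mitochondrial UMIs (367, counted separately) were left out. Scrublet, run per set in scanpy 1.11.5 with an expected rate of 5%, called 65 doublets, which were removed. It called 0.331% of cells in ending A, too few to be taken as having worked there, and 0.662% in ending B, also far below the expected rate, so doublets may remain in both. Erythroid transcripts were abundant in ending B. CPM carry exact Poisson intervals and shares of cells exact Clopper-Pearson intervals (scipy 1.17.1). Ratios over sets are Mantel-Haenszel ratios, whose logarithm was given a normal interval, and cluster ratios carry exact conditional binomial intervals. No count model was fitted, since the pooled matrix has no replicates.

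Clustering used genes counted in both endings (17403), 2000 variable genes without the 6 members, 30 components, 15 neighbours and leidenalg 0.10.2 at resolution 1. The rule for naming clusters was set after seeing the data. PDGFRA-high mesenchyme needed 3 of its markers at 2-fold, another lineage 3 markers at 4-fold with 1 among its top 10 genes, and other mesenchyme 3 general markers at 100 CPM. A blood name further needed 3 blood markers among the top 10 genes, a condition that left 1 cluster unnamed. Named genes are the members, listed pathway genes past 1.5-fold (up to 4 in each direction per list), and the 5 genes with the highest correlation of log2(CPM + 1) over clusters with each member above 20 CPM, among genes reaching 50 CPM. Pik3r1 was named after its value was seen. The values of 1 listed gene are not reported here. Alternatives were other thinning depths and minimums, no stratification, per-cell means, no cycling cells, no cell filter, other resolutions and each set left out. On simulated data for 4 or more against 0 Pdgfra UMIs (6830 genes, 200 changed), 100% of changed genes had the right direction. Of the true ratios of these 200 genes, 95.5% lay inside their interval. The simulated counts held counting error alone, as the intervals assume, and no variation between cells. They check the calculation and not how the intervals behave on the real counts. Gene positions are from GENCODE and the promoter from RefSeq.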

Additional observations from a re-analysis of the deposited data

How the results depend on the processing

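No paired analysis was possible because the labels assign no cell to a sample or lane. Sets in place of samples limit every ratio, and counting intervals say nothing about embryos. Values for each cell class alone were added after seeing the data. The cause of the moves was not tested.

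The odds ratio of Pdgfra with Pdgfrb, 1.15, was 1.36 with 2 UMIs of each gene required, 1.56 in PDGFRA-high and 0.974 in other mesenchyme, and 1.10 to 1.20 leaving out each set. For Pdgfrb the log2 ratio of 4 or more over 0 Pdgfra UMIs, 0.03, was 0.27 with sets pooled, 0.20 as a mean of per-cell CPM, 0.22 without cycling cells, 0.37 in PDGFRA-high mesenchyme and 0.01 to 0.09 leaving out each set. The Pdgfa ratio, 0.17, turned to -0.51 with classes of 0 and 2 or more UMIs drawn after thinning, -0.087 pooled, -0.35 as a per-cell mean, -0.22 without cycling cells and -1.44 in PDGFRA-high mesenchyme. It was 0.36 in other mesenchyme and 0.012 to 0.32 leaving out each set, the low end without A1 (0.012) or A2 (0.04) and the high end without B3. Pdgfb, 0.40, was -0.80 after thinning, -0.52 without cycling cells, 0.96 pooled, 1.67 as a per-cell mean and 0.18 to 0.72 leaving out each set. Pdgfc, 0.73, turned to -0.086 after thinning, -0.13 as a per-cell mean and -0.93 in PDGFRA-high mesenchyme, and was 0.41 to 0.84 leaving out each set, lowest without A1. Pdgfd, 0.09, was 1.02 pooled, -0.16 without cycling cells, -0.46 in PDGFRA-high and -0.14 in other mesenchyme, and -0.05 (without A2) to 0.35 (without B3).

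The counts of 207 higher and 165 lower genes were 1949 and 2422 with no CPM minimum, 130 and 87 with 50 CPM, 57 and 71 at 2-fold, and 272 and 188 with classes drawn after thinning. The cluster log2 ratio of Pdgfa, 3.76 in ending B, was 3.40 and 4.33 at the lower and higher clustering resolution. That of Pdgfra was -0.97 in A at the higher and -0.67 in B at the lower resolution, from -1.11 and -0.83. Of 108 alternative levels by set, 98 stayed inside the main interval, and 9 of the 10 others were per-cell means.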
